A study of Mus musculus with 34 samples.

Results

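The genes described here are 33 genes of fatty acid oxidation and of the response to the nuclear receptor PPAR alpha, taken by symbol from a list that holds the receptor, enzymes of the mitochondrial and peroxisomal pathways, and genes that the receptor is known to switch on. All 33 were among the 14086 genes with normalized counts, and 32 of them averaged 10 or more across the 18 libraries, the minimum for testing, which 6592 genes reached in all. Of the 1659 genes with deposited z-scores, 20 were members. In mitochondrial oxidation, a fatty acid is bound in the cytosol, activated to an acyl-CoA, carried across the inner membrane as an acylcarnitine, and shortened in rounds of dehydrogenation, hydration, a further dehydrogenation and thiolysis, while electrons pass through electron transfer flavoprotein to the respiratory chain. Peroxisomes run a parallel pathway for very long and branched chains. In hepatocytes, PPAR alpha binds DNA together with RXR and raises many of these genes during fasting, and the acetyl-CoA that is formed feeds ketone body synthesis.

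The series compared mouse liver samples carrying altered forms of beta-catenin. All samples had a protocol of hydrodynamic injection, a rapid large-volume tail vein injection that delivers DNA to hepatocytes, used as a model of liver cancer. Its stated aim was to tell apart tumour subtypes driven by beta-catenin isoforms that lack an exon. RNA came from frozen liver tumours, by a text that is the same for all samples, wild type included. Normalized counts cover 18 libraries, of which 2 were wild type, 3 carried the skip 1 isoform of beta-catenin alone and 2 the skip 2 isoform alone. In the other 11 the label reads induced, for skip 1 in 5, skip 2 in 2 and ΔN90-β-catenin (dN90, a beta-catenin without its N-terminal part) in 4. The labels do not say what induced means. The 7 libraries without that word are called uninduced livers here, though those labelled with an isoform alone carry it too. Z-scores describe 4 subtype A samples, 9 subtype B samples and 3 samples labelled sgActin and YAPS127A, that is a guide RNA named for actin with an activated form of YAP. The labels give no strain, sex, age or time, and do not say what was delivered beside the named agent or whether each library is its own animal. The p-values therefore cover only the spread between these samples, which may be technical. For the 4 skip 2 samples another label field reads skip 1, and the source label was used.

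Estimated reads ran from 361772 to 933146 per library (median 524850.5), with the 2 skip2 induced libraries the deepest at 815419 and 933146. For z-scores no depth can be given. Beta-catenin itself, encoded by Ctnnb1 (mm10, chromosome 9, 120929216 to 120960507), had normalized counts of 1266, 580.2, 737, 768 and 669 with skip1 induced and 444 and 457 with skip2 induced. The other 11 libraries, dN90 induced included, lay between 125 and 199. A change in a bulk liver sample cannot tell fewer cells of a type from less RNA per cell.

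On the deposited scale most members lay lower in the induced samples than in the livers compared with them. When every library was brought to 1 column total, the median of the members moved to 0.02 with skip1, 0.21 with skip2 and -0.10 with dN90. The median of all genes rose as well, and relative to it the members stayed lower, at -0.42, -0.33 and -0.65. After quantile normalization they stood at -0.21, -0.02 and -0.45 relative to the median of all genes. Against livers with skip1 alone, skip1 induced samples had 7 of 32 tested members lower (21.9%, against 8.18% of all genes tested) and 2 higher (6.25%, against 6.55%), at a Benjamini-Hochberg adjusted p under 0.05 from limma on log2(normalized count + 1). Against livers with skip2 alone, skip2 induced samples had 6 lower (18.8%, against 8.42% of all genes) and 2 higher (against 6.52%). Against the mean of the 3 uninduced groups, dN90 induced samples had 19 lower (59.4%, against 19.9% of all genes) and 3 higher (9.38%, against 17.6%). The higher members hold Vnn1 in each comparison, a gene that met the minimum mean only through the induced samples. The dN90 comparison shares its uninduced libraries with the other comparisons, so the 3 counts are not independent of each other. The median log2 difference of the 32 genes was -0.45, -0.41 and -0.67 in the 3 comparisons, beside -0.02, -0.06 and 0.01 over all genes tested. Groups did not overlap for 8 lower and 2 higher members with skip1 (10.7% and 8.31% of all genes), 19 and 8 with skip2 (32.6% and 27.3%) and 17 and 3 with dN90 (13.4% and 10.1%). Without skip1 induced replicates 1 and 2, the count of lower members with skip1 was 12 (732 of 6592 genes in all). In these 2 libraries the members lay closest to the uninduced livers (medians of -0.23 and 0.02), so leaving them out favoured a higher count. Without skip1 alone replicate 3 the count of lower members was 3 (296 of 6592 genes). With skip2 it was 1 to 4 when any of its 4 libraries was left out (159 to 530 of 6592 genes). It was 1 without skip2 induced replicate 1 (159 genes), where the median of the members was -0.20. With wild type alone as the reference for dN90, 15 members were lower and 2 higher (788 and 711 of 6592 genes). The calls of Acadvl, Bdh1, Crat, Decr1 and Echs1 were then lost. With the minimum mean at 50, 11, 7 and 15 of 23 members were lower, beside 428, 412 and 635 of all 1679 genes. Medians there were -0.48, -0.55 and -0.72 over the members and -0.24, -0.35 and -0.23 over all 1679.

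These counts depend on how libraries are scaled. The deposited values give uninduced livers larger column totals. Bringing every library to 1 total raised the median of all genes by 0.46, 0.59 and 0.54 log2 units in the skip1, skip2 and dN90 comparisons. Relative to that median the members stood at -0.42, -0.33 and -0.65, close to the -0.43, -0.35 and -0.68 on the deposited scale, while their own medians became 0.02, 0.21 and -0.10. On that scale 33 members were tested, and 1, 2 and 11 were lower and 6, 7 and 9 higher. Acot1, which reached the minimum mean there only through the induced samples, is 1 of the higher members in each comparison. Quantile normalization gave member medians of -0.22, -0.01 and -0.43. Relative to the median of all genes these were -0.21, -0.02 and -0.45, so with skip2 the members hardly stood apart from other genes. Lower members numbered 3, 2 and 15 of 32, beside 303, 341 and 1134 of 6592 genes. Calls over all genes were 432 higher and 539 lower with skip1, 430 and 555 with skip2, and 1158 and 1313 with dN90 on the deposited scale. After scaling to 1 total they were 1720 and 195, 1543 and 226, and 3149 and 539, and after quantile normalization 398 and 303 with skip1 and 436 and 341 with skip2. Quantile normalization ended the skip1 calls of Cpt2, Eci1, Fabp1 and Hsd17b4, the skip2 calls of Acsl1, Acad11, Ehhadh and Hsd17b4, and the dN90 calls of Acaa2, Acadvl, Bdh1 and Etfa. Scaling to 1 total ended the skip1 calls of Cpt2, Eci1, Ehhadh, Etfb, Fabp1 and Hsd17b4, the skip2 calls of Acad11, Eci1, Ehhadh and Hsd17b4, and the dN90 calls of Acaa2, Acads, Acadvl, Bdh1, Decr1, Echs1, Etfa and Slc25a20. No member called on the deposited scale changed direction under any setting tried.

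**Figure D1:**
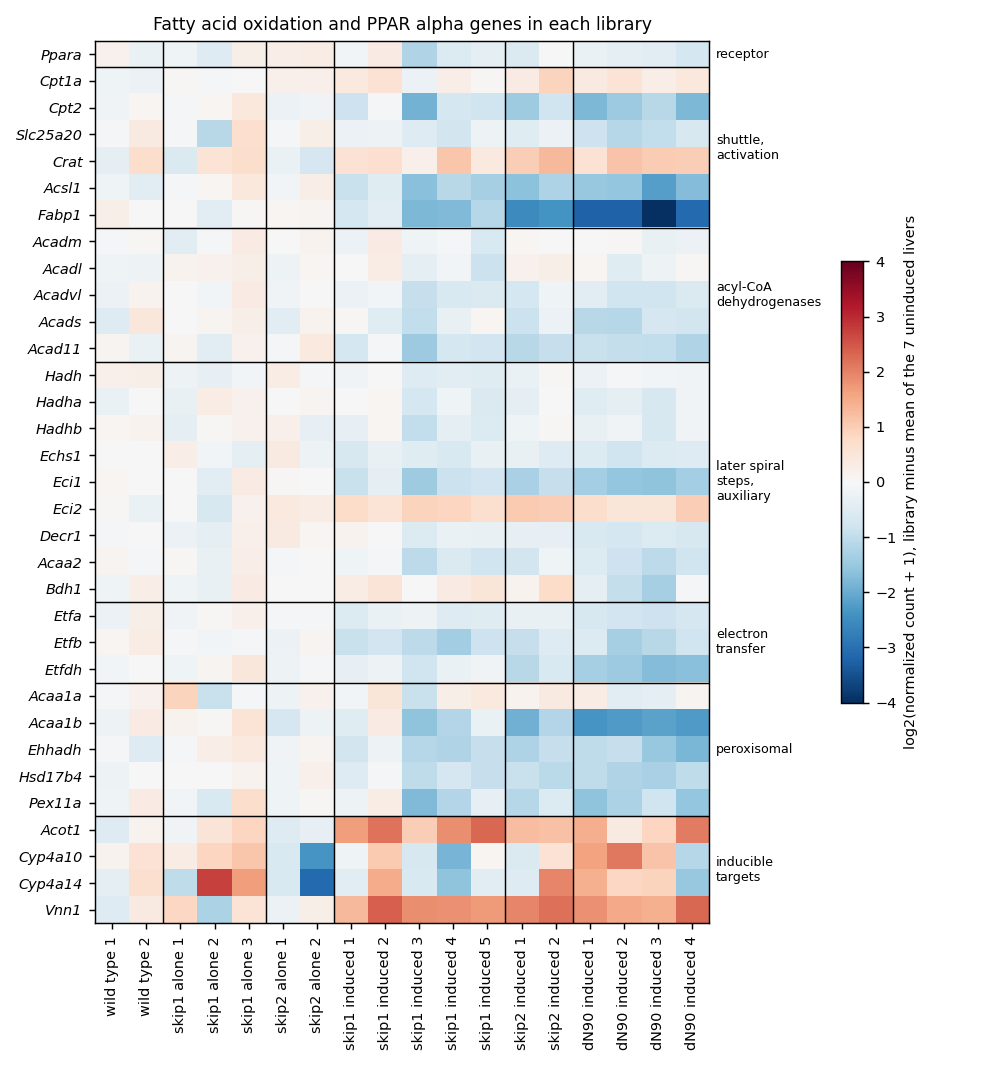
Each cell is 1 of the 33 genes (rows, grouped by role) in 1 of the 18 libraries (columns), coloured by log2(normalized count + 1) minus the mean of the 7 uninduced livers, from blue (lower) to red (higher). Fabp1, Acsl1 and Acaa1b are blue in the dN90 induced libraries, Vnn1 and Acot1 are red in most induced libraries, and skip1 induced replicate 2 lies close to the uninduced livers for most genes.

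Ppara encodes the receptor itself. Its normalized counts were 214 and 159 in wild type liver, 168, 133 and 223 with skip1 alone and 227 and 234 with skip2 alone. With skip1 induced they were 176, 239, 82.0, 130.4 and 144, with skip2 induced 127 and 189, and with dN90 induced 159, 144, 142 and 117. The induced libraries lay within or under the uninduced range, save skip1 induced replicate 2 just above it, and both skip2 induced libraries lay under both with skip2 alone. With all groups in the fit Ppara passed none of the 3 comparisons, with differences of -0.23 ± 0.26 (SE), -0.57 ± 0.36 and -0.47 ± 0.23 and limma adjusted p of 0.617, 0.321 and 0.111. With only the compared groups in the fit, the dN90 difference was called lower (limma adjusted p = 0.0392).

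Among the 6 genes that bind, activate and shuttle fatty acids, Fabp1 showed the largest differences. It encodes the liver fatty acid binding protein, which carries fatty acids in the cytosol, and lies at chromosome 6, 71199827 to 71205023 (mm10, GENCODE). Of the 26 members with a promoter window in the RefSeq table used (300 bases, from 250 before to 50 after the start, GRCm38.p6), Fabp1 was the only gene with a match to a direct repeat of AGGNCA with 1 base (N) between the copies, the kind of element that PPAR alpha and RXR bind, searched on both strands. The motif was found in 125 of 32851 windows (0.381%), and a match is a description of the letters, not evidence of binding. The plus strand before the annotated gene start is shown because it holds that match, in capitals, which reads AGGCCATAGGTCA on the other strand and lies 67 to 55 bases before the RefSeq start.
Fabp1, upstream, chr6:71199629-71199826, plus strand: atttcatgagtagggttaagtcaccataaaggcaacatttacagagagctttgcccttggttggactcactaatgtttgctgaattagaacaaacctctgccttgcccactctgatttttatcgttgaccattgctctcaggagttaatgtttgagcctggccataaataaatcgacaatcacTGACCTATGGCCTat

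Fabp1 normalized counts were 586 and 489 in wild type liver, 498, 365 and 519 with skip1 alone and 531 and 534 with skip2 alone. The skip1 induced libraries had 309, 361, 144, 144 and 226, the skip2 induced libraries 85.0 and 93.5 and the dN90 induced libraries 51.9, 52.0, 30.1 and 56.6. Each induced library lay under every uninduced one, and the 3 induced groups did not overlap each other, with skip1 highest and dN90 lowest. The log2 difference was -1.04 ± 0.28 (SE, limma adjusted p = 0.0146) with skip1, -2.56 ± 0.38 (SE, limma adjusted p = 0.000102) with skip2 and -3.42 ± 0.24 (SE, limma adjusted p = 7.58e-10) with dN90. Between the induced groups, Fabp1 was higher with skip1 than with dN90 by 2.23 ± 0.25 (SE, limma adjusted p = 6.56e-06) and higher with skip1 than with skip2 by 1.30 ± 0.32 (SE, limma adjusted p = 0.0256). The difference between skip2 and dN90 did not pass, at 0.93 ± 0.33 (SE, limma adjusted p = 0.156). The call against skip1 alone was lost without skip1 alone replicate 1 or replicate 3, and the call between skip1 and skip2 without any of skip1 induced replicates 1 and 5 and both skip2 induced replicates.

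Acsl1 encodes the main liver acyl-CoA synthetase of long chains (chromosome 8, 46471037 to 46536051). Its normalized counts were 428 and 357 in wild type liver, 474, 519 and 653 with skip1 alone and 451 and 581 with skip2 alone. With skip1 induced they were 259, 349, 152, 226 and 193, with skip2 induced 155 and 206 and with dN90 induced 169.9, 166, 104 and 144. All 11 induced libraries were lower than all 7 uninduced ones. The differences were -1.26 ± 0.24 (SE, limma adjusted p = 0.00137), -1.51 ± 0.33 (SE, limma adjusted p = 0.00337) and -1.73 ± 0.21 (SE, limma adjusted p = 1.29e-06), and no test between induced groups passed with all libraries. The skip1 call held in all 18 settings and left-out libraries tried, while the skip2 call was lost without skip2 induced replicate 1.

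The carnitine shuttle did not move as 1 unit. Cpt1a, the outer membrane transferase that gates entry into mitochondria, had normalized counts of 265 and 253 in wild type liver and 378, 431, 360.0 and 396 with dN90, where its difference was 0.40 ± 0.17 (SE, limma adjusted p = 0.0656). With skip1 and skip2 it was 0.21 ± 0.19 and 0.42 ± 0.26, also short of the threshold. After quantile normalization or scaling to 1 column total, Cpt1a was called higher in all 3 comparisons. Cpt2, the inner membrane transferase that turns the acylcarnitine back into acyl-CoA, fell instead. Its counts were 78.9, 87.4 and 111 with skip1 alone against 46.3, 78.6, 21.4, 49.6 and 46.8 with skip1 induced, and the 2 groups met without overlapping. The difference was -1.01 ± 0.29 (SE, limma adjusted p = 0.0241), lost without skip1 alone replicate 2 or 3, and -1.52 ± 0.25 (SE, limma adjusted p = 7.71e-05) with dN90, where counts were 22.8, 29.6, 37.6 and 22.8. With skip2 it was -0.91 ± 0.40 and did not pass. Slc25a20, the carrier of acylcarnitines, was lower with dN90 at -0.93 ± 0.24 (SE, limma adjusted p = 0.00504), and at -0.23 ± 0.28 with skip1 and -0.46 ± 0.39 with skip2, which did not pass. Crat, which moves acetyl and other short acyl groups to carnitine, was higher with skip2 at 1.62 ± 0.40 (SE, limma adjusted p = 0.00895) and with dN90 at 0.96 ± 0.25 (SE, limma adjusted p = 0.00513). Its counts were 18.5 and 13.7 with skip2 alone and 46.0 and 56.6 with skip2 induced, but 16.99 and 37.4 in the 2 wild type livers. The dN90 call was lost when wild type alone was the reference. The skip2 call was lost without skip2 alone replicate 2 or skip2 induced replicate 2.

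**Figure D2:**
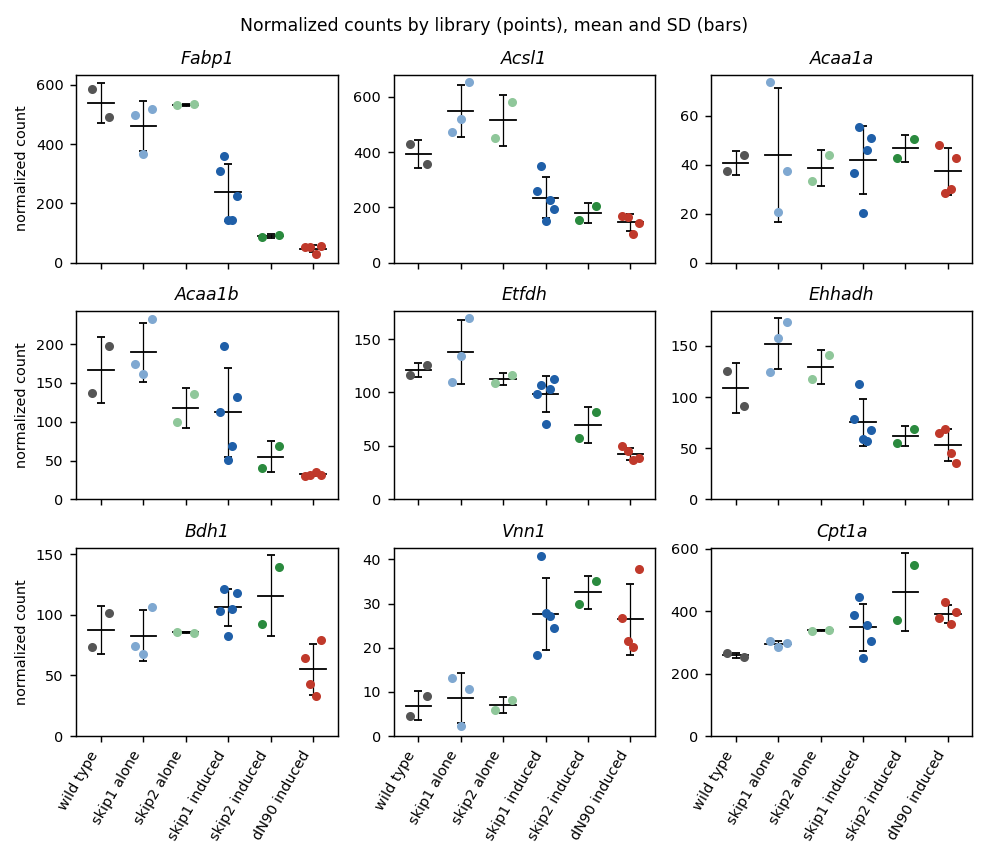
Normalized counts (vertical axes, starting at 0) of 9 genes in the 18 libraries, 1 point per library by group, with bars for the mean and SD. Fabp1 steps down from skip1 to skip2 to dN90 induced, Acaa1b falls while Acaa1a overlaps between groups, and Vnn1 is higher in each induced group than in the uninduced ones.

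The 5 acyl-CoA dehydrogenases carry out the first step of each round, each on its own chain lengths. With dN90, 3 of 5 were lower. Acadvl, for very long chains, differed by -0.63 ± 0.18 (SE, limma adjusted p = 0.00791), and Acads, for short chains, by -0.90 ± 0.23 (SE, limma adjusted p = 0.00416). Acad11, a family member with a less settled role, had normalized counts of 172 and 233 with skip2 alone and 82.3 and 93.5 with skip2 induced. It was lower with skip2, at -1.18 ± 0.33 (SE, limma adjusted p = 0.0178), and with dN90, at -1.02 ± 0.21 (SE, limma adjusted p = 0.000606), while the skip1 value of -0.67 ± 0.24 did not pass (limma adjusted p = 0.0627). The skip2 call was lost without skip2 alone replicate 2 or skip2 induced replicate 1. Acadm and Acadl, the medium and long chain enzymes, passed no test on the deposited scale. Acadm differed by -0.11 ± 0.21 (SE), -0.04 ± 0.28 and -0.13 ± 0.18 with skip1, skip2 and dN90, and Acadl by -0.39 ± 0.22, 0.28 ± 0.31 and -0.11 ± 0.19, with none passing. Both changed sign with dN90 after scaling to 1 column total (0.41 for Acadm and 0.43 for Acadl, called higher there), and Acadl was called higher with skip2 on that scale as well.

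The later steps split in a similar way. Hadha and Hadhb encode the 2 subunits of the mitochondrial trifunctional protein, which handles long chains from hydration to thiolysis. They are divergent neighbours with 85 bases between the annotated starts, shown here because 1 short stretch serves the upstream side of both genes. Capitals mark the GC box GGGCGG (both strands searched), which occurs in the windows of 21 of the 26 members with a RefSeq window and in 35.7% of all windows.
Hadha and Hadhb, between the starts, chr5:30155163-30155247, plus strand: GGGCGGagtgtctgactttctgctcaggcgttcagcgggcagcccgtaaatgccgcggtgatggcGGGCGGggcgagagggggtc

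In normalized counts neither subunit gene passed in the 3 comparisons, though Hadha was called lower with dN90 without skip1 alone replicate 1 (limma adjusted p = 0.0488). Hadha differed by -0.34 ± 0.21 with skip1, -0.23 ± 0.29 with skip2 and -0.40 ± 0.18 with dN90, and Hadhb by -0.39 ± 0.22, -0.0032 ± 0.30 and -0.31 ± 0.19. Hadh, the hydroxyacyl-CoA dehydrogenase of shorter chains, had -0.10 ± 0.18, -0.21 ± 0.24 and -0.17 ± 0.15, and with dN90 changed sign to 0.38, called higher, after scaling to 1 column total. Eci1, the mitochondrial isomerase that prepares unsaturated chains, was lower in all 3 comparisons on the deposited scale. Its normalized counts were 82.7 and 79.8 in wild type liver, 78.9, 57.5 and 98.0 with skip1 alone, 82.1 and 76.9 with skip2 alone, 42.0, 61.1, 28.8, 42.4 and 45.8 with skip1 induced, 31.7 and 41.1 with skip2 induced and 29.9, 26.5, 25.1 and 29.8 with dN90 induced. The dN90 and skip2 libraries lay under every uninduced one, while skip1 induced replicate 2 lay within the range of skip1 alone. The differences were -0.82 ± 0.22 (SE, limma adjusted p = 0.0159), -1.12 ± 0.30 (SE, limma adjusted p = 0.016) and -1.48 ± 0.19 (SE, limma adjusted p = 3.77e-06). The skip1 call was lost without skip1 alone replicate 3, and the skip2 call without skip2 induced replicate 1 or either skip2 alone library.

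Eci2, a related isomerase found in peroxisomes as well as mitochondria, went the other way. Its normalized counts were 114, 71.7 and 125 with skip1 alone and 188, 164, 207, 203 and 175 with skip1 induced, without overlap. It rose by 0.88 ± 0.19 (SE, limma adjusted p = 0.00402) with skip1 and 0.64 ± 0.17 (SE, limma adjusted p = 0.00462) with dN90, and with skip2 it was at 0.67 ± 0.27, which did not pass (limma adjusted p = 0.0942). Of the enzymes lower with dN90 and not called with skip1 or skip2, Echs1, the short chain hydratase, differed by -0.60 ± 0.17 (SE, limma adjusted p = 0.00753). Decr1, a reductase for polyunsaturated chains, differed by -0.64 ± 0.16 (SE, limma adjusted p = 0.00391), and Acaa2, the mitochondrial thiolase, by -0.79 ± 0.20 (SE, limma adjusted p = 0.00309). Whether these 3 differ between dN90 and the skip isoforms was tested directly, and none passed (limma adjusted p from 0.195 to 0.881). Bdh1 makes the ketone body beta-hydroxybutyrate. Its counts were 103, 121, 82.7, 105 and 118 with skip1 induced, 91.9 and 139 with skip2 induced and 64.5, 42.8, 32.6 and 79.5 with dN90 induced, and every skip library was above every dN90 library. Bdh1 was lower with dN90 than in uninduced livers, at -0.69 ± 0.22 (SE, limma adjusted p = 0.0172), and higher in both skip groups than in dN90, at 1.01 ± 0.23 (SE, limma adjusted p = 0.0108) and 1.11 ± 0.30 (SE, limma adjusted p = 0.0479). The dN90 call against uninduced livers and both calls between induced groups were lost without dN90 induced replicate 3. The first and the last were also lost without dN90 induced replicate 2, and the last without either skip2 induced library.

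**Figure D3:**
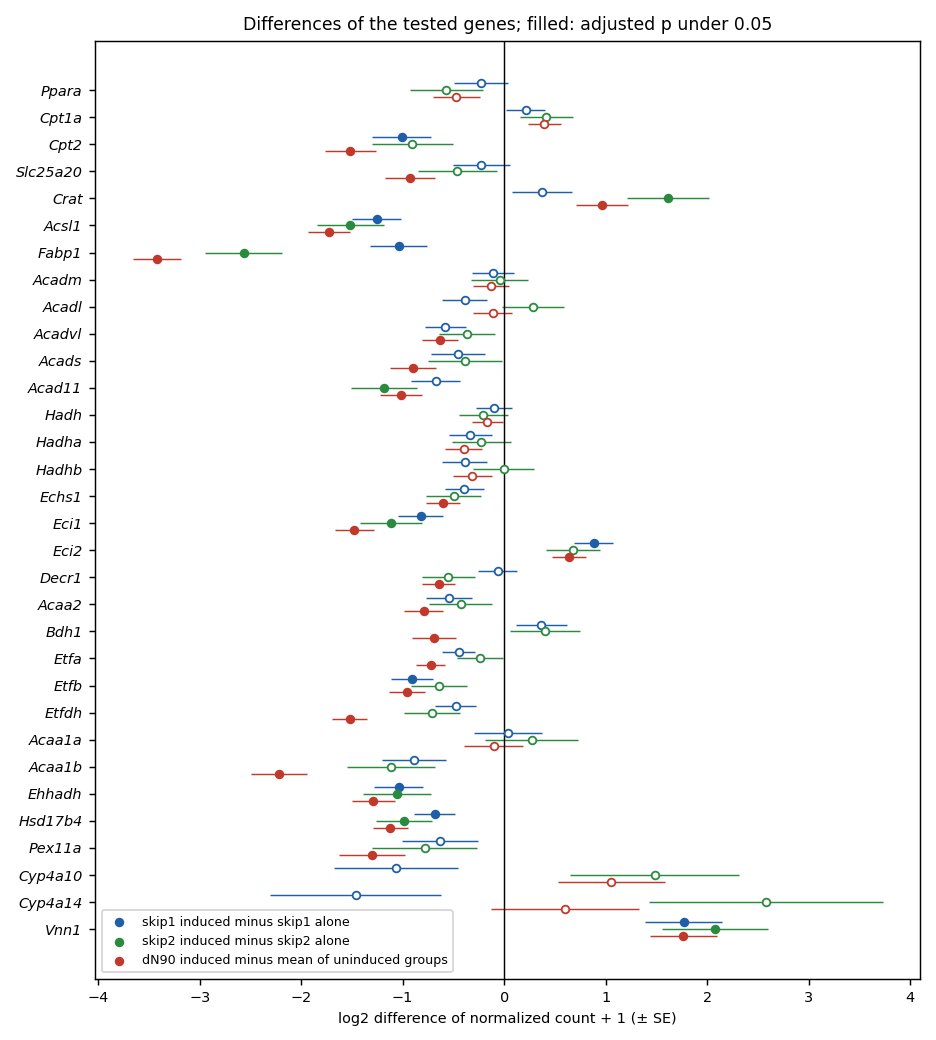
Log2 differences of normalized count + 1 (horizontal axis, points with SE bars) for the 32 tested genes (rows) in 3 comparisons, filled where the limma adjusted p is under 0.05. Fabp1 reaches -3.42 with dN90, Vnn1, Crat and Eci2 lie right of 0, and Cpt1a, Acadm, Hadh, Hadha and Hadhb carry only open points.

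All 3 genes of the electron transfer step were lower with dN90. Etfdh, the oxidoreductase that hands the electrons to ubiquinone (chromosome 3, 79603788 to 79629500), had normalized counts of 117 and 125 in wild type liver, 110.2, 135 and 169 with skip1 alone and 109 and 117 with skip2 alone. With skip1 induced they were 99.0, 107, 70.6, 103 and 113, with skip2 induced 57.5 and 81.6 and with dN90 induced 49.6, 44.9, 36.4 and 38.7. The dN90 libraries lay under all others, and the skip1 induced libraries above both skip2 induced ones, save replicate 3, which fell between them. The difference with dN90 was -1.52 ± 0.17 (SE, limma adjusted p = 6.53e-07), and skip1 exceeded dN90 by 1.19 ± 0.18 (SE, limma adjusted p = 0.00024). Against their own uninduced livers, skip1 and skip2 were at -0.48 ± 0.20 and -0.71 ± 0.27 and did not pass. Etfdh was called lower with skip2 at a mean of at least 50 and with the depth covariate. Etfa and Etfb encode the 2 subunits of electron transfer flavoprotein. With dN90 they differed by -0.72 ± 0.14 (SE, limma adjusted p = 0.000478) for Etfa and -0.96 ± 0.18 (SE, limma adjusted p = 0.000215) for Etfb. Etfa was at -0.45 ± 0.17 with skip1 and -0.24 ± 0.23 with skip2, and Etfb at -0.64 ± 0.28 with skip2, none of which passed. Etfb was also lower with skip1, where 64.6, 70.3, 57.6, 45.1 and 68.1 stood against 115, 112 and 116 with skip1 alone and the difference was -0.91 ± 0.20 (SE, limma adjusted p = 0.00464).

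In the peroxisomal group the 2 thiolase genes parted. Acaa1b (chromosome 9, 119148023 to 119157093) and Acaa1a are near-identical genes 182582 bases apart, and reads that fit both may have been divided between them, so their values are uncertain. Acaa1b had normalized counts of 137 and 197 in wild type liver, 174, 161 and 232 with skip1 alone and 99.4 and 136 with skip2 alone. With skip1 induced they were 112, 197, 51.1, 68.6 and 132, with skip2 induced 40.9 and 69.1 and with dN90 induced 29.9, 31.6, 35.1 and 31.8. The 4 dN90 libraries sat close together under every other library, while the skip1 libraries ran from the uninduced range down to the skip2 level. Acaa1b was lower with dN90, at -2.22 ± 0.27 (SE, limma adjusted p = 1.81e-06), and skip1 exceeded dN90 by 1.62 ± 0.29 (SE, limma adjusted p = 0.00109). With skip1 and skip2 the values of -0.89 ± 0.31 and -1.11 ± 0.43 did not pass (limma adjusted p = 0.0627 and 0.0892). The skip1 value was called lower at a mean of at least 50 and without skip1 induced replicate 2. Acaa1a was at 0.04 ± 0.33, 0.27 ± 0.46 and -0.10 ± 0.29, and its groups overlapped in each comparison.

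Both bifunctional enzymes of peroxisomal oxidation were lower in each comparison on the deposited scale, and with dN90 on every scale tried. Ehhadh, for straight chains and a classic PPAR alpha target, had normalized counts of 126 and 91.4 in wild type liver, 125, 158 and 174 with skip1 alone and 118 and 141 with skip2 alone. With skip1 induced they were 78.5, 113, 59.4, 56.9 and 68.1, with skip2 induced 55.2 and 68.5 and with dN90 induced 64.5, 68.4, 45.2 and 35.8. Only skip1 induced replicate 2 reached the range of the uninduced livers. Its differences were -1.04 ± 0.24 (SE, limma adjusted p = 0.00654), -1.06 ± 0.33 (SE, limma adjusted p = 0.0364) and -1.29 ± 0.21 (SE, limma adjusted p = 6.19e-05). Hsd17b4, for branched chains and bile acid precursors, differed by -0.69 ± 0.20 (SE, limma adjusted p = 0.0261), -0.99 ± 0.28 (SE, limma adjusted p = 0.0187) and -1.12 ± 0.17 (SE, limma adjusted p = 3.44e-05). With skip2, both calls were lost without skip2 alone replicate 2, skip2 induced replicate 1 or skip2 induced replicate 2, and the Ehhadh call also without skip2 alone replicate 1. The Hsd17b4 call with skip1 was lost without any 1 skip1 alone library, or without skip1 induced replicate 3 or 5. Pex11a, which promotes division of peroxisomes, had counts of 10.8, 14.0, 19.7 and 11.3 with dN90 and a difference of -1.31 ± 0.32 (SE, limma adjusted p = 0.00326). With skip1 and skip2 it was at -0.63 ± 0.37 and -0.78 ± 0.51 and did not pass.

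The 4 inducible targets did not follow the enzymes. Vnn1 encodes vanin-1, a pantetheinase, and lies at chromosome 10, 23894688 to 23905343. Its normalized counts were 4.53 and 9.14 in wild type liver, 13.2, 2.30 and 10.7 with skip1 alone and 5.78 and 8.24 with skip2 alone. The skip1 induced libraries had 18.3, 40.7, 27.9, 27.1 and 24.5, the skip2 induced ones 29.9 and 35.1 and the dN90 induced ones 26.7, 21.4, 20.1 and 37.8. Every induced library lay above every uninduced one. The differences were 1.77 ± 0.38 (SE, limma adjusted p = 0.00383), 2.08 ± 0.53 (SE, limma adjusted p = 0.00995) and 1.77 ± 0.33 (SE, limma adjusted p = 0.000276). The mean of the 7 uninduced livers was 7.69, so Vnn1 met the minimum mean of 10 only through the induced samples and its presence among the tested genes was tied to that direction. The skip2 call was lost without skip2 alone replicate 1 or either skip2 induced library.

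Acot1, a cytosolic thioesterase that cleaves acyl-CoA and has near-identical neighbours, had an overall mean of 9.57 and was not tested with the other members. Its normalized counts were 2.27 and 4.16 in wild type liver, 3.29, 5.75 and 7.46 with skip1 alone and 2.31 and 2.75 with skip2 alone. The skip1 induced libraries had 14.0, 20.4, 8.36, 16.2 and 22.4, the skip2 induced ones 10.1 and 9.53 and the dN90 induced ones 11.8, 5.10, 7.53 and 18.9. Only dN90 induced replicate 2 fell inside the uninduced range, with replicate 3 just above it. With no minimum on the mean, limma gave 1.40 ± 0.40 with skip1 (SE, adjusted p = 0.0271), 1.62 ± 0.55 with skip2 (0.0718) and 1.26 ± 0.35 with dN90 (0.00879).

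Cyp4a10 and Cyp4a14, microsomal omega-hydroxylases that rise strongly when PPAR alpha is activated, varied widely within groups. Both belong to a cluster of similar genes on chromosome 4, so reads may be split among them. Cyp4a14 normalized counts were 3.29, 56.4 and 26.6 with skip1 alone, 4.62 and 0 with skip2 alone, 5.38, 23.1, 4.64, 1.81 and 5.32 with skip1 induced, 5.06 and 32.2 with skip2 induced and 22.02, 14.3, 15.1 and 1.99 with dN90 induced. Cyp4a10 had 31.2, 47.2 and 56.5 with skip1 alone, 16.2 and 4.12 with skip2 alone, 22.6, 53.7, 15.8, 6.32 and 26.6 with skip1 induced, 16.6 and 38.1 with skip2 induced and 80.2, 112, 57.7 and 10.9 with dN90 induced. Libraries high for the first were mostly high for the second. With all libraries on the deposited scale neither gene passed in a comparison. Without dN90 induced replicate 4, Cyp4a10 was called higher with dN90 than in uninduced livers (1.75, limma adjusted p = 0.00662) and lower with skip1 than with dN90 (limma adjusted p = 0.0251), and it was called higher with dN90 after scaling to 1 column total. The SEs reached 1.15 for Cyp4a14 and 0.84 for Cyp4a10 with skip2.

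The members called with skip1 and with skip2 overlapped. Acsl1, Fabp1, Eci1, Ehhadh and Hsd17b4 were lower in both, 71.4% of the 7 lower with skip1 and 83.3% of the 6 lower with skip2. Vnn1, 1 of the 2 higher in each, was higher in both, but it met the minimum mean only through the induced samples. Over all genes tested, 287 were lower in both (53.2% of 539 and 51.7% of 555) and 218 higher in both (50.5% of 432 and 50.7% of 430). When the 2 changes were tested against each other, limma called 0 of 32 members (11 of all genes, 0.167%), and 4 of 32 had an unadjusted p under 0.05 (662 of all genes). Those 4 were Fabp1 at 1.52 ± 0.47 (SE, limma adjusted p = 0.24), Crat at -1.25 ± 0.50 (SE, limma adjusted p = 0.402), Cyp4a10 at -2.55 ± 1.03 (SE, limma adjusted p = 0.407) and Cyp4a14 at -4.04 ± 1.43 (SE, limma adjusted p = 0.312).

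Set side by side, induced groups differed in few members. Against dN90, skip1 was higher in 4 of 32 (12.5%, against 3.17% of all genes), namely Fabp1, Acaa1b, Etfdh and Bdh1, and lower in 0 (1.46% of all genes were). Without skip1 induced replicate 3, 7 were higher (248 of 6592 genes), with Acsl1, Cpt2 and Eci1 added. Without dN90 induced replicate 4, 1 was lower, Cyp4a10 (73 of 6592 genes). Skip2 was higher than dN90 in 1, Bdh1 (0.576% of all genes, and 2.46% lower), and skip1 higher than skip2 in 1, Fabp1 (3.09% of all genes, and 0.44% lower). These comparisons share induced libraries. Between skip1 and dN90, 2 of 10 hepatocyte, 3 of 10 macrophage and 4 of 7 endothelial markers were higher with skip1 too, and their part was not tested. Of the 32, 30 had a positive difference between skip2 and dN90, with a median of 0.31 (0.05 over all genes), and 23 between skip1 and dN90, with a median of 0.21 (-0.02 over all genes). With depth as a covariate the median between skip2 and dN90 was 0.000998, and without skip2 induced replicate 2 it was 0.15. Between skip1 and dN90 it was 0.11 without skip1 induced replicate 2 and 0.31 without skip1 induced replicate 3.

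No member was called between an isoform alone and wild type liver, with 2 or 3 libraries in each group. With limma, 0 of 32 were called with skip1 alone (0 of all genes) and 0 with skip2 alone (1 of all genes, 0.0152%). At an unadjusted p under 0.05 these counts were 0 (4.13% of all genes) and 1, Cyp4a10 (5.01% of all genes). Medians were 0.03 and -0.03.

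Other cell types and the hepatocyte markers moved with the same groups. The summed normalized count of 10 hepatocyte markers was 64540 to 66790 in wild type liver, 80320 to 86850 with skip1 alone, 82570 to 85630 with skip2 alone, 20360 to 58870 with skip1 induced, 41140 to 46530 with skip2 induced and 24240 to 30990 with dN90 induced. Of those 10, 4, 2 and 6 were lower with skip1, skip2 and dN90, with medians of -0.65, -0.79 and -0.69, none was higher, and none was at 0. The 8 biliary markers in the table summed to 14.6 to 45.6 in the uninduced libraries and to 170 to 812 in the induced ones, and the 3 of them tested were higher in each comparison. Of 10 tested macrophage markers 7, 1 and 5 were higher, and 1 was lower with dN90, with sums of 261 to 408 in uninduced and 394 to 774 in induced libraries. Of 4 tested proliferation markers 3, 3 and 4 were higher, with sums over the 8 in the table of 22.4 to 39.1 and 81.6 to 216. With such uninduced sums the 4 cannot all have averaged 10 there. For at least 1 of them, being tested was therefore tied to being higher in the induced samples. Whether this holds for the 3 biliary markers as well was not tested. Of 6 tested stellate and fibroblast markers 3 were higher in each comparison and 0, 1 and 2 lower, with sums of 150 to 241 and 121 to 446, and of 7 tested endothelial markers 3 were lower with dN90 only, with sums of 358 to 445 and 220 to 439. The 4 T and B cell markers in the table summed to 1.07 to 10.6, while Cd3e, Trac, Ms4a1 and Ighm, and beside them Tf and Cftr of the hepatocyte and biliary lists, were not analysed here. The part of these cells in the members' differences was not tested.

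The members differed between the skip1 induced libraries. Their median log2 difference from the 7 uninduced livers was -0.23, 0.02, -0.86, -0.56 and -0.46 in replicates 1 to 5, where hepatocyte markers summed to 38930, 58870, 20360, 29140 and 26050. Replicate 2 had 15 of 32 members under the uninduced mean and replicate 3 had 29. The skip2 induced libraries stood at -0.54 and -0.20, and the dN90 induced libraries at -0.54, -0.79, -0.73 and -0.69.

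**Figure D4:**
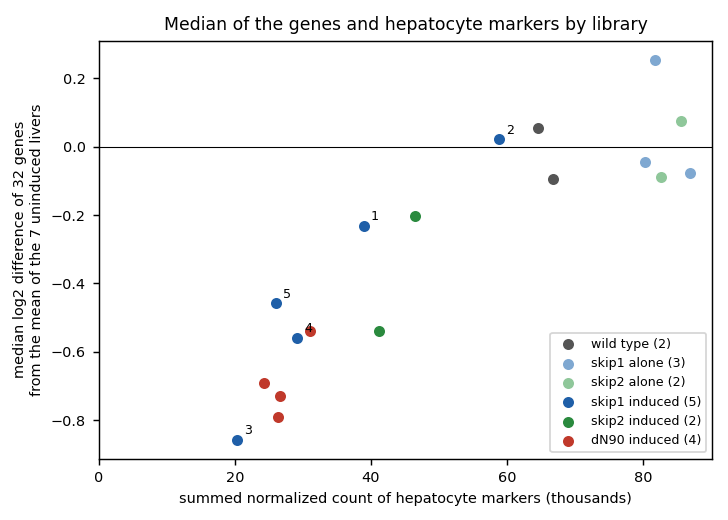
Each point is 1 of the 18 libraries, with the summed normalized count of the hepatocyte markers (horizontal axis) and the median log2 difference of the 32 tested genes from the mean of the 7 uninduced livers (vertical axis), skip1 induced replicates numbered. Uninduced livers lie between -0.09 and 0.25, skip1 induced replicate 2 beside them at 0.02, and dN90 induced libraries at -0.54 or lower.

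Related genes outside the 33 members were counted from 4 lists, to be read against the shares of all genes tested that were lower (8.18%, 8.42% and 19.9% with skip1, skip2 and dN90) or higher (6.55%, 6.52% and 17.6%). Of 32 tested peroxisomal genes, 13, 10 and 22 were lower with skip1, skip2 and dN90 and 0, 1 and 1 higher (medians -0.51, -0.76 and -0.77). The 1 higher with skip2, Abcd2, had means of 1.40 in wild type, 6.93 with skip1 alone and 5.20 with skip2 alone. These lay under 10, so Abcd2 met the minimum mean only through the induced samples. Nudt7, which hydrolyses CoA in peroxisomes, had means of 292 ± 65.0 (SD, n = 3) in skip1 alone livers and 68.5 ± 29.3 (n = 5) in skip1 induced ones, 12.6 ± 0.535 (n = 2) with skip2 induced and 9.32 ± 5.59 (n = 4) with dN90 induced. Its differences were -2.16 ± 0.32 (SE, limma adjusted p = 0.000153), -4.47 ± 0.44 (SE, limma adjusted p = 1.19e-06) and -4.96 ± 0.28 (SE, limma adjusted p = 2.88e-11). Scp2, a sterol carrier and thiolase, followed at -1.40 ± 0.25, -2.39 ± 0.34 and -2.82 ± 0.21, and Pecr, an enoyl-CoA reductase, at -1.78 ± 0.29, -1.93 ± 0.40 and -2.43 ± 0.25. Of 28 further mitochondrial and ketone body genes, 5, 7 and 16 were lower and 1, 1 and 2 higher (medians -0.42, -0.53 and -0.64). Acsm1, a medium chain acyl-CoA synthetase, was lower with skip2, at -1.65 ± 0.26 (SE, limma adjusted p = 0.000216), and with dN90, at -1.90 ± 0.17 (SE, limma adjusted p = 1.35e-08), and Slc16a1, a carrier of lactate and ketone bodies, was higher by 1.07 ± 0.29 (SE, limma adjusted p = 0.0169) with skip1 and 1.35 ± 0.40 (SE, limma adjusted p = 0.0252) with skip2.

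Of 32 further PPAR alpha targets, 6, 4 and 13 were lower and 2, 4 and 4 higher (medians -0.20, -0.30 and -0.36). The lower share with skip2 was 12.5% and the higher share with dN90 was 12.5%, beside 8.42% and 17.6% of all genes. Cd36, which takes fatty acids into cells and is made by macrophages and endothelium as well, rose with skip1 by 1.42 ± 0.28 (SE, limma adjusted p = 0.00192). Its means were also 14.9 with skip2 alone, 51.3 with skip2 induced and 58.2 with dN90 induced. Lpl, the lipase that frees fatty acids from lipoproteins, rose with skip2 by 2.30 ± 0.52 (SE, limma adjusted p = 0.0045). Its means were also 19.3 with skip1 alone, 38.1 with skip1 induced and 37.6 with dN90 induced. Cyp4a12a, another omega-hydroxylase, had means of 143 ± 35.8 (SD, n = 3) in skip1 alone livers, 137 ± 12.2 (n = 2) in skip2 alone livers, 57.1 ± 19.7 (n = 5) with skip1 induced, 1.58 ± 0.288 (n = 2) with skip2 induced and 1.09 ± 1.26 (n = 4) with dN90 induced. It was the only gene of the 4 lists whose change differed between skip1 and skip2 past the threshold (limma adjusted p = 0.00138). Among 18 partners and regulators of the receptor, 1, 1 and 2 were lower and 1, 0 and 1 higher. Sirt1, a deacetylase, rose by 1.44 ± 0.31 (SE, limma adjusted p = 0.00383) with skip1 and by 0.73 ± 0.27 (SE, limma adjusted p = 0.0384) with dN90, where the groups overlapped. With skip2 its mean was lower, at 8.60 induced against 13.9 alone, and it was not called. Its means were 9.94 in wild type and 6.29 with skip1 alone. Over the uninduced livers Sirt1 averaged under 10, so it met the minimum only through the induced samples. Prkaa2, a catalytic subunit of AMP kinase, fell with skip2 and dN90, with differences of -1.17 ± 0.37 (SE, limma adjusted p = 0.0374) and -1.10 ± 0.23 (SE, limma adjusted p = 0.000888).

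Z-scores, in SDs of a gene over the libraries scaled together, covered 20 members in subtype A, subtype B and the sgActin and YAPS127A samples. The name of the deposited table says that its 1659 genes are differentially expressed ones. The tests below therefore run on genes chosen for differing between groups, possibly these, and counts are read only against the rest of the table. Subtype A was higher than subtype B in 18 of 20 members (against 40.3% of all genes), and lower in 0 (20.9% of all genes). The median difference was 0.41 SD, beside 0.19 over all genes, and all 20 differences were above 0. Fabp1 at 0.32 ± 0.17 and Acaa1b at 0.32 ± 0.22 (SE) did not pass (limma adjusted p = 0.105 and 0.197), but both were called higher in subtype A with array weights or with only the 2 subtypes in the fit, so that 20 of 20 were called there.

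Etfdh z-scores were 2.10, 1.95 and 2.01 in the 3 control samples and 0.19, -0.20, -0.17 and 0.07 in subtype A, and subtype B had a lowest z-score of -0.77, a median of -0.56 and a highest of -0.45. All subtype A samples lay above all subtype B samples, and the difference was 0.55 ± 0.08 (SE, limma adjusted p = 0.000424). Ppara was -0.15, -0.10, -0.36 and -0.28 in subtype A, and in subtype B it had a lowest z-score of -0.75, a median of -0.54 and a highest of -0.30, so the 2 overlapped. It differed by 0.31 ± 0.11 (SE, limma adjusted p = 0.0241), a call lost without subtype A replicate 1 or 2. The 2 subtypes did not overlap for 15 of the 20 members (34.8% of all genes lay higher in A without overlap). Calls for Eci1, Ehhadh and Vnn1 were likewise lost on leaving out single subtype A libraries (replicates 1, 2 or 4 for Eci1, 1 or 4 for Ehhadh, and 2, 3 or 4 for Vnn1), and 14 of the 18 held in all 16 settings tried.

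Both subtypes lay far below the sgActin and YAPS127A samples in 19 of 20 members (95.0%, against 55.6% of all genes in each comparison) and above them in 1, Vnn1 (41.7% of all genes for subtype A and 44.1% for subtype B). The median difference was -2.20 SD for subtype A and -2.60 for subtype B, beside -1.995 and -2.46 over all genes. With 3 samples at 1 end of the scale, their mean can exceed that of the other 14 scaled with them by at most 2.54 SD, so sizes cannot be set against each other between genes. Vnn1 was at -1.28, -1.78 and -2.05 in the controls and -0.12, 1.502, 0.89 and 1.51 in subtype A, and subtype B had a lowest z-score of -0.40, a median of 0.17 and a highest of 0.88. All samples of both subtypes lay above the controls, with differences of 2.65 ± 0.36 (SE, limma adjusted p = 2.64e-06) and 1.89 ± 0.31 (SE, limma adjusted p = 2.11e-05), and subtype A exceeded B by 0.76 ± 0.28 (SE, limma adjusted p = 0.0294). Fabp1 was at 2.83, 1.61 and 1.58 in the controls, and control replicate 1 was the highest of the 3 in 16 of the 20 members. The 2 subtype comparisons with control share those samples.

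**Figure D5:**
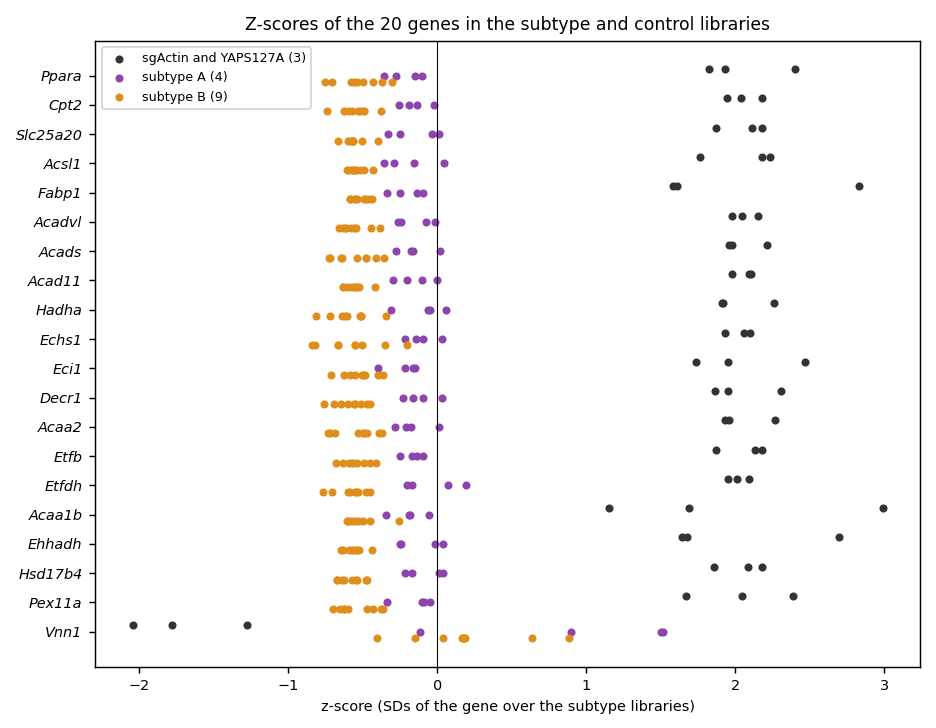
Z-scores (horizontal axis, SDs of each gene over the subtype libraries) of the 20 members (rows) in 3 sgActin and YAPS127A, 4 subtype A and 9 subtype B samples, 1 point per sample. Controls lie at 1.15 or higher for every gene but Vnn1, where they lie at -1.28 or lower, and subtype A lies mostly between subtype B and the controls.

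The markers of other cells differed between these samples as well. Subtype A was higher than B in 3 of 5 hepatocyte and 4 of 4 endothelial markers and lower in 2 of 5 biliary and 2 of 6 proliferation markers, with 1 of 2 macrophage and 1 of 4 stellate and fibroblast markers higher. Against control, 5 of 5 hepatocyte and 4 of 4 endothelial markers were lower and 5 of 5 biliary and 6 of 6 proliferation markers higher in each subtype. Their part in the members' differences was not tested. Of the related lists, subtype A was higher than B in 18 of 19 peroxisomal genes, 13 of 16 mitochondrial and ketone body genes, and 11 of 18 further PPAR alpha targets, with 1 lower, Slc27a1, a fatty acid transporter, at -1.11 ± 0.15 (SE, limma adjusted p = 0.000372).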

How the data were processed

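Mouse liver RNA was sequenced from strand-specific libraries, per the labels' protocols. The tools FastQC, STAR, RSEM and DESeq2 and the mm10 build are named per the submitters' processing notes. Versions and settings are not given in the sources used here. The authors deposited normalized counts, a signal that is never negative, for 18 libraries, and a score per gene, the z-score, for 1659 genes that the table's name calls differentially expressed, by a rule that no source here states. From the deposited values, the 16 subtype libraries were scaled together with 1 more that has no column in the table, and z-scores of the other 18, scaled apart, were not used. Whole multiples of a step per library (tolerance 0.001) made up 59.3 to 60.5% of normalized counts above 0, too few for a count test, so estimated reads are the column sum over that step. Low genes are limited by that depth.

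Groups came from the source label, and replicate numbers follow accession order. Genes averaging 10 or more in the 18 libraries were tested on log2(value + 1) with limma 3.58.1 in R 4.3.3 (trended prior, 1 coefficient per group, two-sided, Benjamini-Hochberg over all genes, threshold 0.05). A difference on this scale understates the change of low genes. Z-scores were tested with limma without a trend over the 16 libraries. The test was also run on simulated independent genes with normal noise and equal scaling. That cannot vouch for calls where libraries differ in scaling. All 33 members are accounted for, and up to 4 called genes per related list and comparison, those with the largest differences, could be named. The members and the lists were chosen with earlier results of these data known. Promoter windows are from RefSeq (GRCm38.p6) and gene positions from GENCODE on mm10. Alternatives were pseudocounts of 0.5 and 5, no minimum and a mean of at least 50, quantile and upper-quartile scaling, a fit on the compared groups, log2 depth as a covariate, for z-scores array weights and a robust prior, dN90 against wild type only, and leaving out libraries. Scaling to 1 column total was added after seeing the data.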

Additional observations from a re-analysis of the deposited data

Results flagged for a closer look

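Within groups of 4 to 10 samples, 106 sets of values were screened for a sample far from the others, and 4 stood out, where chance alone gives about 5% of sets. Echs1 had a normalized count of 33.7 in dN90 induced replicate 2, under the other 3 libraries, of which the nearest was at 40.1. Cyp4a14 reached 23.1 in skip1 induced replicate 2, far above the other 4 libraries, the nearest of which was at 5.38. Acad11 had a z-score of -0.42 in subtype B replicate 6, above the other 8 samples, with the nearest at -0.53. Acaa1b had a z-score of -0.26 in subtype B replicate 1, with the nearest of the other 8 at -0.45.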

How the results depend on the processing

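No member called on the deposited scale changed direction under any alternative. With dN90 against uninduced livers, 3 genes that were not called turned positive and were called after scaling to 1 column total. These were Acadl at 0.43, Acadm at 0.41 and Hadh at 0.38. That scaling gave 9 members higher and 11 lower (3149 and 539 of 6698 genes). All counts by column total are of 33 members and hold Acot1 as higher. With skip1 against skip1 alone, the main 2 higher became 6 by column total (1720 of 6698 genes) and 1 at a mean of at least 50 (117 of 1679). The main 7 lower became 1 by column total (195 of 6698) and 11 of 23 at a mean of at least 50 (428 of 1679). They became 4 with only the compared groups (416 of 6592) and 3 with quantile normalization (303 of 6592). Without skip1 induced replicates 1 and 2 they became 12 (732 of 6592). With skip2 against skip2 alone, the main 2 higher became 7 by column total (1543 of 6698 genes) and 4 with quantile normalization (436 of 6592). They became 0 with the depth covariate (323 of 6592) or at a mean of at least 50 (114 of 1679), where fewer members were tested. The main 6 lower became 2 by column total (226 of 6698) and 2 with quantile normalization (341 of 6592). At a mean of at least 50 they became 7 of 23 (412 of 1679). Fabp1, the only member higher with skip1 than skip2, gave 0 with the depth covariate, with only the compared groups, and without skip1 induced replicates 1 and 2. Bdh1, the only member higher with skip2 than dN90, gave 0 with the depth covariate, with no minimum, and with only the compared groups. Leaving out 1 library at a time gave 3 to 11 lower with skip1 (296 to 704 of 6592 genes). With skip2 it gave 1 to 4 lower (159 to 530) and 0 to 1 higher (187 to 299), fewest lower without skip2 induced replicate 1. For skip1 against dN90 it gave 3 to 7 higher (157 to 248) and 0 to 1 lower (48 to 90). It gave 0 to 1 higher for skip1 against skip2 (8 to 331) and for skip2 against dN90 (5 to 39). Calls held under all alternatives for 3 of 9 members with skip1, 1 of 8 with skip2, 13 of 22 with dN90 and all 20 of each subtype against control. Other members gained a lower call under some alternatives, Acaa1b, Acaa2, Acad11, Acadvl, Etfa and Pex11a with skip1 and Etfdh with skip2. Scaling to 1 column total gave higher calls to Bdh1, Cpt1a and Crat with skip1 and to Acadl, Bdh1, Cpt1a and Eci2 with skip2. Beyond what fewer libraries or genes imply, the cause was not tested. No paired analysis was possible because the labels give the groups no shared replicate numbers. Groups of 2 libraries, and estimated reads of at most 933146 per library, limit what low genes such as Vnn1, Acot1 and Cyp4a14 can show.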
